A study of Brassica napus with 30 samples.

Results

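The gene models described here are the first 500 tested ones of chromosome C02 of oilseed rape (Brassica napus), sorted by their IDs, which carry the chromosome and an order along it. A model entered if it reached 0.531 CPM (its count scaled to a common library total) in at least 3 of the 30 libraries. These 500 members were taken from 2825 tested models of C02, and from 57945 tested models in the whole series. The stretch was chosen by its values in these libraries, since its models were low in the genotype JY1621 relative to the genotype JY1605. That difference is therefore given as a description, with no test, and tests are kept for temperature and imbibition within each genotype.

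RNA came from whole seeds of JY1621 and JY1605 in 5 conditions: dry, and imbibed for 8 h or 36 h at either 8 °C, the low temperature, or 25 °C, the normal one. Each of the 10 groups held 3 libraries, which the labels call biological replicates, and 100 seeds were used per RNA sample. The sources used here do not say if they are separate seed lots, so p-values measure only the spread between these samples. Sampling time went with time of day, since dry seeds were taken at zeitgeber time 0, seeds imbibed for 8 h at 8 and those imbibed for 36 h at 12, and the effects of time and time of day cannot be told apart. In such bulk samples fewer cells of a type and less RNA per cell cannot be told apart either. The 15 JY1621 libraries held 15901888 to 78251632 counts and the 15 JY1605 libraries 14250480 to 33804896.

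Oilseed rape is an allotetraploid, formed from a Brassica rapa-like parent that gave the A subgenome and a Brassica oleracea-like parent that gave the C subgenome. Most genes thus have a homoeologous copy on the other subgenome, and much of C02 corresponds to A02. Lines of this crop are known to differ by exchanges between homoeologous chromosomes, in which a segment of one copy is lost or is replaced by the other. Whether JY1621 carries such a change cannot be read from RNA counts alone and was not tested. The counting of reads that match both copies is not given in the sources used, so a count on a C02 model can include reads from its A02 copy. The IDs could not be paired with gene names, and 0 matched the RefSeq gene table used here, so members are named by ID and no functions are given.

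The members together took 0.0927% ± 0.00889 of all counts in dry JY1621 seeds and 0.652% ± 0.0150 in JY1605 seeds of that condition (SD, n = 3 each). The 3 dry JY1621 libraries gave 0.102%, 0.0912% and 0.0847%, and the 3 dry JY1605 libraries 0.647%, 0.668% and 0.639%. After 36 h at 25 °C, when the share was highest in both genotypes, it was 0.180%, 0.176% and 0.184% in JY1621 libraries, against 1.26%, 1.22% and 1.24% in JY1605 libraries. The groups did not overlap in either condition, and every JY1621 library of the study lay below every JY1605 library. Seeds imbibed for 8 h had shares in the same relation, which at 25 °C was 0.136% ± 0.0200 in JY1621 and 1.04% ± 0.00960 in JY1605. At 8 °C it was 0.0953% ± 0.00894 in JY1621 and 0.667% ± 0.00533 in JY1605. With 36 h at 8 °C it was 0.128% ± 0.00477 in JY1621 and 0.927% ± 0.00310 in JY1605. The JY1621 share was thus between 13.1% and 14.5% of the JY1605 share in all 5 conditions, although the level itself moved with imbibition and temperature. For the next 500 tested models of C02 the same ratio ran from 90.1% after 36 h at 25 °C to 104.4% after 36 h at 8 °C.

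**Figure D1:**
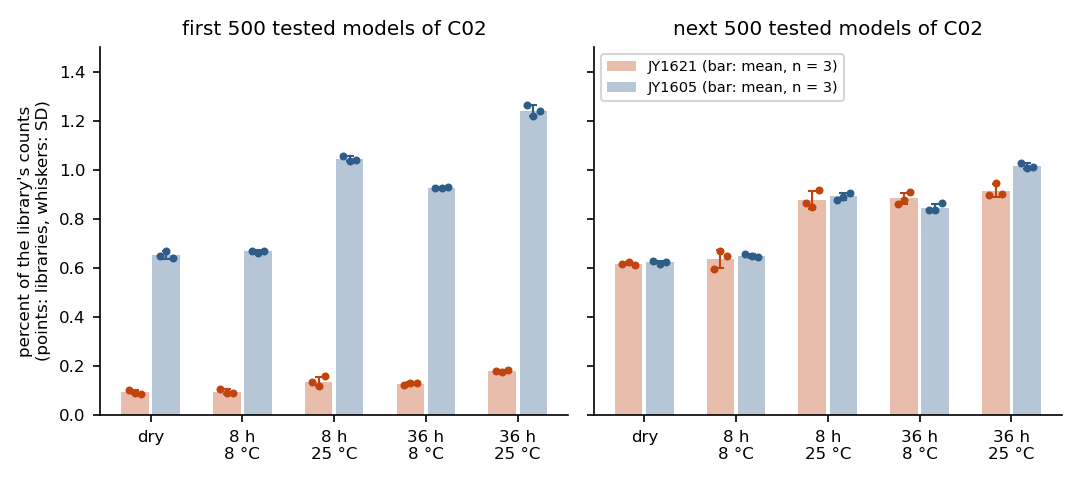
Percent of each library's counts that fell on the first 500 tested models of C02 (left panel) and on the next 500 (right panel), by condition. Points are single libraries, bars are means of 3 libraries and whiskers are SD, with JY1621 left of JY1605. The JY1621 libraries sit at 0.0847% to 0.184% for the first 500 models, against 0.639% to 1.26% in JY1605, while the 2 genotypes lie close together for the next 500.

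Member by member, the JY1621 level (mean CPM over its 15 libraries, scaled for library composition) had a median of 7.11% of the JY1605 level, with quartiles of 3.63% and 16.1%. The median over the next 500 models was 82.9%. Of the 500 members, 15 had no count in any JY1621 library, 30 stood above 0 and up to 1% of the JY1605 level, 135 at 1 to 5%, 136 at 5 to 10%, 78 at 10 to 20% and 79 at 20 to 50%. Another 7 members stood at 50 to 80%, 9 at 80 to 125% and 11 above 125%. In all 5 conditions, 372 members stood at or below 50% of JY1605. Of all tested models 4.34% did so, and of the next 500 it was 22 models. A condition with no count in either genotype gave no percent and was not counted as low. In dry seeds, for example, 474 of the 500 members had a percent. Members missing from the 372 thus need not have risen above 50% in any condition. The count of 372 describes the contrast that chose the stretch and nothing is read from it.

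The filter on low values let members in through either genotype. In 283 members the limit was reached within JY1621 and within JY1605, in 211 only within JY1605 and in 6 only within JY1621. The 211 entered through the genotype in which they are high and had to differ. Between the first and the last member the table held 384 further C02 models that did not reach the limit. Of these, 116 had no count at all, 128 had counts only in JY1605, 5 only in JY1621 and 135 in both. Their summed counts were 1154 in JY1621 and 6078 in JY1605. The member nearest the limit, BnaC02G0033500ZS, had a third-highest CPM of 0.549, and the model nearest below it, BnaC02G0015500ZS, had 0.523.

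The stretch began at the first tested model of the chromosome and ended abruptly. The edge was placed at the rank that best split the chromosome into a low and a later part, each described by its median log2 difference between JY1621 and JY1605. That rank was 488. The median log2 difference was -2.89 over the 488 members before it and -0.05 over the C02 models after it. Computed condition by condition, the edge fell at ranks 486 to 488, and at ranks 486 to 488 for each single JY1621 library. The stretch without the 12 members after the edge thus had the same extent in dry and imbibed seeds and at both temperatures, within 2 models.

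**Figure D2:**
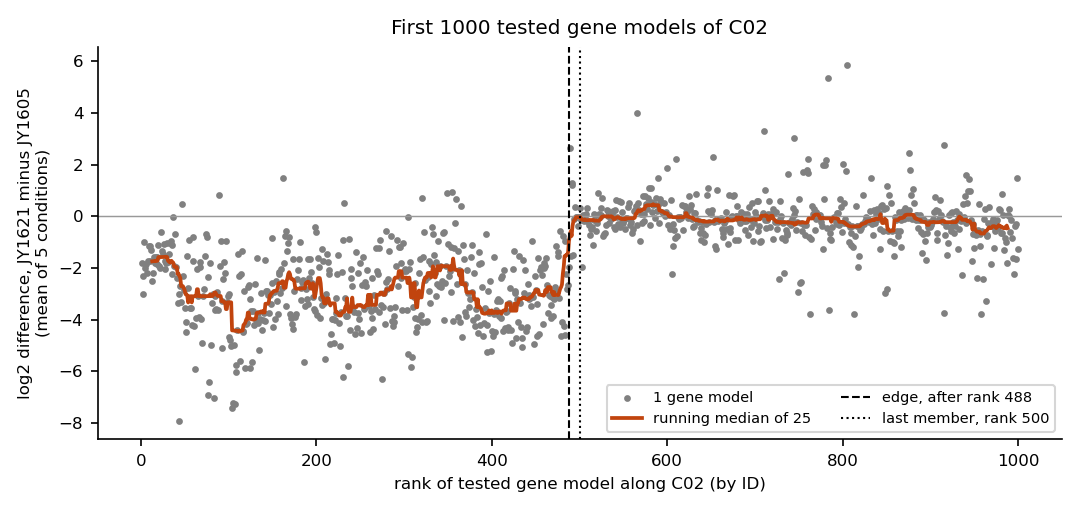
Log2 difference of JY1621 minus JY1605 (vertical axis, mean of 5 conditions) for the first 1000 tested C02 models in ID order (horizontal axis, rank). Each point is 1 model, the line is a running median of 25 models, the dashed line marks the edge after rank 488 and the dotted line the last member at rank 500. The points drop to a median of -2.89 before the edge and return to about 0 after it.

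The members at ranks 486 to 488, the last before the edge, were rarely counted in JY1621. The member before them, BnaC02G0086200ZS (rank 485), was not of this kind, with a median of 8.45 CPM in JY1621 and 27.5 CPM in JY1605. BnaC02G0086400ZS (rank 487) had a lowest, median and highest CPM of 0, 0 and 0.148 in JY1621 libraries, against 0.0550, 0.530 and 2.65 in JY1605 libraries. BnaC02G0086500ZS (rank 488) had 0, 0 and 0.0582 CPM in JY1621 and 0, 0.370 and 1.06 CPM in JY1605. Both ranges overlapped at their low ends, where JY1605 itself was near 0. The first model after the edge went the other way. BnaC02G0086700ZS (rank 489) had 0.388, 0.780 and 2.25 CPM in JY1621, against 0, 0.0550 and 0.482 CPM in JY1605, so that its mean was 832% of JY1605. BnaC02G0086900ZS (rank 490) was low again, with 0, 0 and 0.140 CPM in JY1621 and 0, 0.177 and 1.64 CPM in JY1605.

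Ranks 489 to 495 held models of both kinds, at 7.46% to 832% of JY1605, and ranks 496 to 500 were even, at 90.1% to 97.7%. Among the mixed models BnaC02G0087500ZS (rank 492) had 1.02, 7.42 and 24.6 CPM in JY1621 as lowest, median and highest, against 0.509, 2.69 and 8.90 CPM in JY1605. Its neighbour BnaC02G0087600ZS (rank 493) had 4.68, 20.2 and 36.4 CPM in JY1621, against 9.38, 52.8 and 145 CPM in JY1605. Both neighbours had overlapping ranges, and their means stood at 304% and 32.2% of JY1605. Both were picked out after their values were seen.

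The rule ends at a fixed number of models, so the models just inside and just outside its limit lay beyond the edge and were alike. The member before the last, BnaC02G0088300ZS, averaged 16.4 CPM in JY1621 and 17.8 in JY1605, and the last member, BnaC02G0088400ZS, averaged 3.62 CPM in JY1621 and 3.70 in JY1605. Just outside, BnaC02G0088600ZS averaged 13.4 CPM in JY1621 and 13.7 in JY1605, and the model after it, BnaC02G0088700ZS, 12.7 CPM in JY1621 and 14.5 in JY1605. Their percent levels were 92.4%, 97.7%, 97.8% and 87.7% in this order.

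The level kept in JY1621 was not the same along the stretch. The first 50 members had a median of 21.4% of the JY1605 level, and 31 of those 50 stood above 20%. From rank 51 to rank 488 the median was 6.13%, and 64 of 438 members stood above 20%. Summed over the models of a block, the level was 25.4% of JY1605 for the first 50 and 11.1% for ranks 51 to 488. For ranks 489 to 500 it was 67.0% and for the next 500 models 94.8%. In windows of 25 models the lowest median was 2.35%, at ranks 101 to 125, where the summed level was 22.6 CPM in JY1621 and 499.2 CPM in JY1605. Higher windows lay between, with a median of 13.7% at ranks 176 to 200 and 14.6% at ranks 326 to 350. The first member of the chromosome, BnaC02G0000100ZS, had 0, 0.436 and 0.989 CPM as lowest, median and highest value in JY1621, against 0.550, 1.13 and 8.59 CPM in JY1605.

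**Figure D3:**
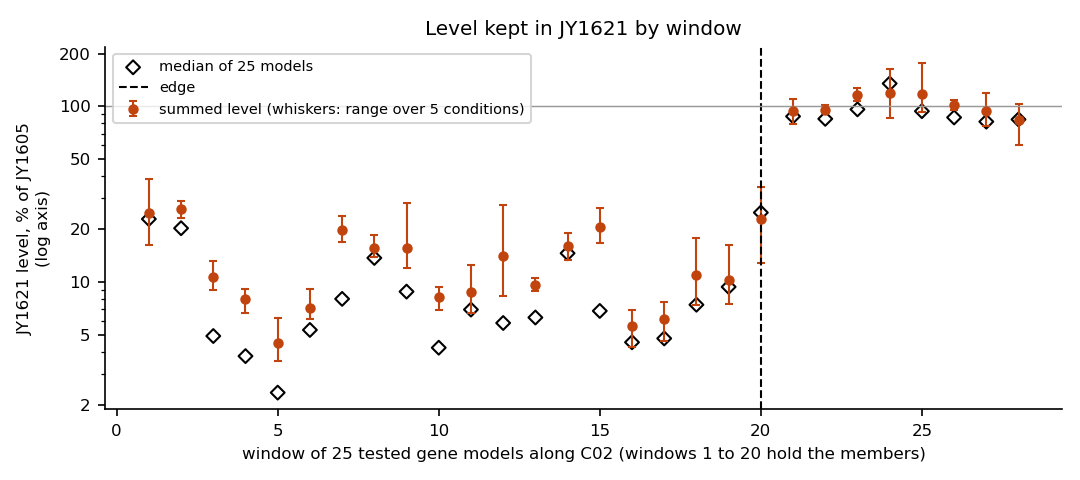
JY1621 level as percent of JY1605 (vertical log axis) in windows of 25 tested models along C02 (horizontal axis), for the first 28 windows. Filled circles give the summed level of a window with its range over the 5 conditions as whiskers, open diamonds the median of its 25 models, and the dashed line the edge inside window 20. Windows 1 and 2 stand at 22.8% and 20.2% by their medians, window 5 is lowest at 2.35%, and windows 21 to 28 lie between 81.9% and 135%.

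The residual level also differed between JY1621 libraries. The median over the members before the edge was lowest, at 4.19% of JY1605, in replicate 2 of the seeds imbibed for 8 h at 25 °C. It was highest, at 9.94%, in replicate 1 of those imbibed for 8 h at 8 °C, and replicate 1 of the dry seeds stood at 9.54%. The summed level before the edge varied less, between 10.7% and 15.1%. Over 2051 models outside C02 that were also at or below 50% of JY1605 in all 5 conditions, the medians of the same libraries ran from 9.34% to 13.7%. A source of these differences between libraries was not tested.

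Members without any count in JY1621 were the extreme class, and all 15 lay before the edge. BnaC02G0020100ZS (rank 119) had 0 counts over the 15 JY1621 libraries and 3677 over the 15 JY1605 libraries. Against 3 counts over the whole JY1621 group, the level that a count of 0 allows, it was at least 1330.5-fold lower in JY1621. BnaC02G0018200ZS (rank 109) had 0 counts in JY1621 and 1748 in JY1605, at least 633-fold lower. BnaC02G0083600ZS (rank 476) had 0 counts in JY1621 and 1659 in JY1605, at least 600.3-fold lower. All counts of this last model came from JY1605 seeds after 36 h at 25 °C, at 19.2, 16.6 and 16.2 CPM, and the other 12 JY1605 libraries had none. For the other 12 members of the class the JY1605 counts ran from 53 to 980. These limits cover counting error only.

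Most members were low but countable in JY1621, and those with the highest levels in JY1605 allow a close look. BnaC02G0014000ZS (rank 85) averaged 40.0 CPM in JY1621 and 492 CPM in JY1605, 8.14% of it. It stood between 6.03% and 10.9% of JY1605 in the 5 conditions. Its 3 JY1621 libraries had 87.8, 65.4 and 113 CPM after 36 h at 25 °C, against 1150, 957 and 891 CPM in JY1605. At 8 °C after the same time the JY1621 libraries had 14.4, 15.6 and 21.1 CPM, against 153, 146 and 167 CPM in JY1605. The groups did not overlap. In both genotypes this model was highest after 36 h at 25 °C, followed by dry seeds and by seeds imbibed for 8 h at 8 °C.

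BnaC02G0049800ZS (rank 278) averaged 12.2 CPM in JY1621 and 303 CPM in JY1605, and its percent level was not constant. In dry seeds it had 18.7, 27.4 and 13.3 CPM in JY1621, against 671, 620 and 690 CPM in JY1605. By 36 h at 25 °C it had 11.96, 5.68 and 14.3 CPM in JY1621, against 16.2, 36.0 and 18.4 CPM in JY1605. The percent level was 45.3% in that condition and between 2.38% and 5.51% in the other 4 conditions. In JY1605 the model was high in dry seeds and lowest after 36 h at 25 °C, and in JY1621 it was lowest after 36 h at 8 °C.

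Few members before the edge kept their level. Only 4 of the 488 stood at or above 80% of JY1605 in all 5 conditions, and 7 stood above 50% in all 5. In the next 500 models 119 stood at or above 80% in all 5 conditions. No member stood above 200% in all 5 conditions. The escaping members stood at ranks 162, 349, 359 and 365, so that 3 of the 4 lay near each other. All 7 are named here because there were few, and 4 of them were named after their values were seen.

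BnaC02G0028800ZS (rank 162) was the escaping member with the highest level. Its lowest, median and highest CPM were 10.7, 12.1 and 16.3 in JY1621, against 2.89, 4.41 and 8.25 in JY1605. The groups did not overlap, and every JY1621 library lay above every JY1605 library. Its mean was 273% of JY1605, between 171% after 36 h at 25 °C and 403% in dry seeds. BnaC02G0063600ZS (rank 365) had 2.51, 11.3 and 12.9 CPM in JY1621, against 1.82, 5.17 and 11.3 CPM in JY1605. Its ranges overlapped, and it stood between 101% in dry seeds and 218% after 36 h at 25 °C.

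The other escaping members were low in both genotypes. BnaC02G0061700ZS (rank 359) had 1.05, 1.78 and 2.71 CPM in JY1621 as lowest, median and highest, against 0.369, 1.02 and 3.27 CPM in JY1605. BnaC02G0059800ZS (rank 349) had 119 counts in JY1621 and 60 in JY1605 over all libraries. At this depth its percent level is uncertain. Among those above 50% throughout, BnaC02G0007500ZS (rank 47) averaged 6.20 CPM in JY1621 and 5.97 CPM in JY1605. BnaC02G0014400ZS (rank 89) had 226 counts in JY1621 and 183 in JY1605, with 18 in JY1621 and 0 in JY1605 after 8 h at 8 °C. BnaC02G0056200ZS (rank 321) had 224 in JY1621 and 143 in JY1605.

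**Figure D4:**
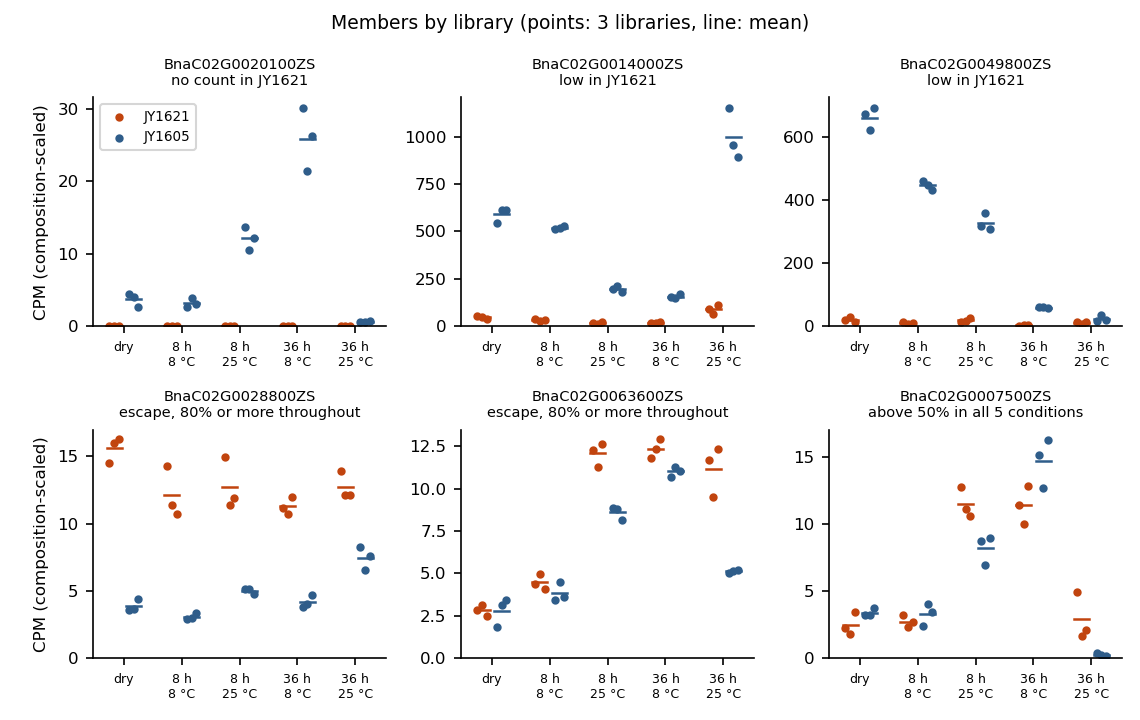
Composition-scaled CPM of 6 members in every library, by condition, with JY1621 left of JY1605. Points are libraries and short lines means of 3, and each panel has its own vertical axis starting at 0. BnaC02G0020100ZS has no JY1621 count, BnaC02G0014000ZS and BnaC02G0049800ZS stay low in JY1621, and BnaC02G0028800ZS lies at 10.7 to 16.3 CPM in JY1621, above all JY1605 libraries.

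The question of how the members answered low temperature could be tested within each genotype, since the rule did not compare temperatures. Its limit on low values could still be reached in the 3 libraries of a single condition. Members that entered in this way had to be higher in that condition. All tested models passed the same limit. A model was called when its adjusted p in edgeR's quasi-likelihood test was below 0.05 and its absolute log2 fold change at least 1. The SE printed with a fold change is its size divided by the square root of the test's F value, so it is approximate. In JY1621 after 36 h, 8 °C against 25 °C gave 168 called members, of which 28 were higher and 140 lower in the cold. Among all tested models the called share was 34.5%, 14.3% higher and 20.1% lower, so the members' total of 33.6% was close to the background while calls in the upward direction were 5.6% of them and in the downward direction 28%. The next 500 models had 84 higher and 96 lower. Without the deepest library of the study, replicate 1 of JY1621 after 36 h at 25 °C, 141 members were called, 25 higher and 116 lower. In 30 of the 168 calls one of the temperature groups held 3 counts or fewer, and the remaining calls were 23 higher and 115 lower.

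In JY1605 after 36 h, 317 members were called, of which 125 were higher and 192 lower in the cold. The background was 61.4%, with 28.7% higher and 32.7% lower, and the members' 63.4% lay near it. In 29 of the 317 calls one of the temperature groups held 3 counts or fewer, 4 of them higher and 25 lower. The remaining calls were 121 higher and 167 lower. The median log2 fold change was -0.42 over the members in JY1605, -0.16 over the next 500 and -0.07 over all tested models. The members' summed counts per library were 14672 to 140762 in JY1621 and 91123 to 412511 in JY1605, so fewer reads stood behind each JY1621 test. The part of depth in the lower number of JY1621 calls was not tested.

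After 8 h in JY1621, 141 members were called between 8 °C and 25 °C, 81 higher and 60 lower, against 33.3% of all models, 16.9% higher and 16.4% lower. After 8 h in JY1605, 182 were called, 72 higher and 110 lower, against 41.3% of all models, 20% higher and 21.3% lower. With library totals as the only scaling, the split was 54 higher and 91 lower in JY1621 and 40 higher and 180 lower in JY1605, and the direction in JY1621 thus depends on the scaling. It also turned in JY1621 without replicate 2 of the 25 °C group, at 56 higher and 74 lower, and without replicate 1 of the 8 °C group, at 61 higher and 68 lower.

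**Figure D5:**
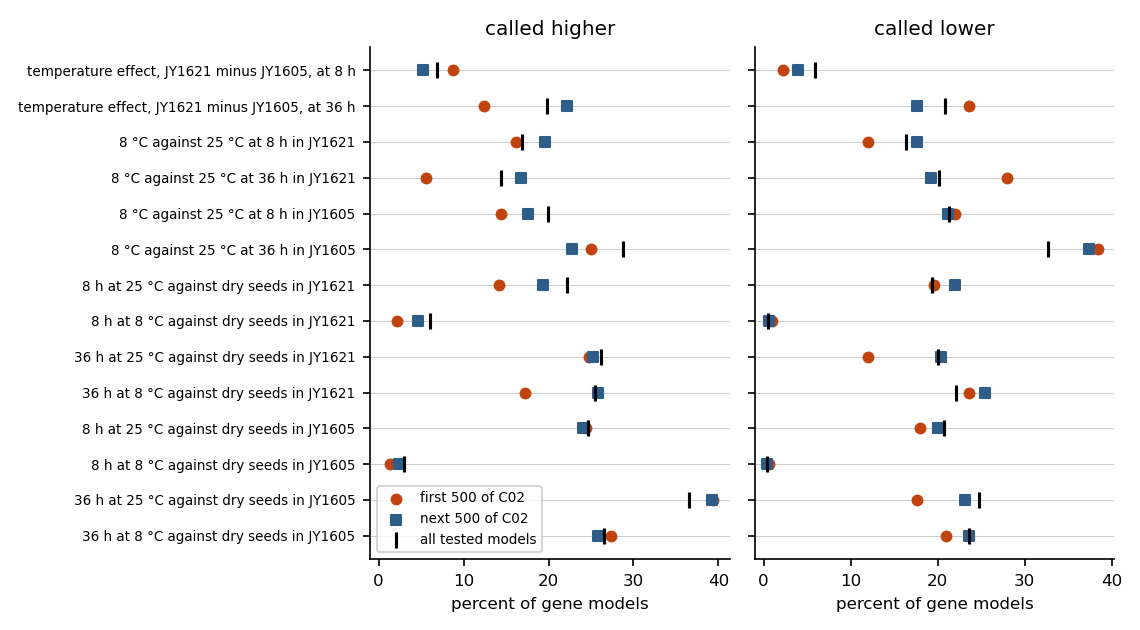
Percent of gene models called higher (left) and lower (right) in each of 14 comparisons. Circles are the first 500 tested models of C02, squares the next 500 and bars all 57945 tested models. At 36 h in JY1621 the members stand at 5.6% higher and 28% lower at 8 °C, against 14.3% and 20.1% of all tested models.

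The temperature response was called different between the genotypes for some members, at shares below those of all tested models. It was tested as the temperature effect in JY1621 minus that in JY1605. The members' called shares were 36% at 36 h and 11% at 8 h. A set of 149 members lay before the edge at or below 50% of JY1605 and had at least 1 CPM in JY1621. Of these, 45.6% were called at 36 h, 12 positive and 56 negative, and 14.8% at 8 h, 15 positive and 7 negative. Both shares of this set were above those of all tested models. JY1621 counts on members can include reads from A02 copies, and their part in such differences was not tested. At 36 h, 180 members were called, 62 with a positive and 118 with a negative difference, against 40.6% of all tested models, 19.8% positive and 20.8% negative. The next 500 models had 111 positive and 88 negative differences. In 20 of the 180 one of the 4 groups held 3 counts or fewer, and the others were 53 positive and 107 negative. At 8 h, 55 members were called, 44 positive and 11 negative, against 12.8% of all models, 6.93% positive and 5.91% negative. Leaving out replicate 2 of JY1621 after 8 h at 25 °C left 24 positive and 15 negative, and leaving out replicate 1 of JY1621 after 8 h at 8 °C left 26 positive and 15 negative.

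The members named for temperature are those with the widest changes in JY1605 at 36 h in each direction, among members averaging 8 CPM or more across its libraries of both temperatures. BnaC02G0020100ZS, which had no count in JY1621, had 30.04, 21.3 and 26.2 CPM at 8 °C, against 0.516, 0.558 and 0.763 CPM at 25 °C in JY1605. The groups did not overlap, and the log2 fold change was 5.41 ± 0.22 (SE, adjusted p = 1.49e-21, edgeR). After 8 h in JY1605 the direction was the opposite, with 2.58, 3.85 and 3.08 CPM at 8 °C, against 13.6, 10.5 and 12.2 CPM at 25 °C. The temperature response of this model could not be compared between the genotypes, since JY1621 had nothing to measure.

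BnaC02G0028000ZS (rank 161) had 19.9, 21.8 and 18.0 CPM at 8 °C, against 0.584, 0.760 and 0.400 CPM at 25 °C after 36 h in JY1605. In JY1621 it had 1.16, 1.08 and 1.498 CPM at 8 °C, against 0.280, 0.0989 and 0.311 CPM at 25 °C. Groups did not overlap in either genotype. It rose at 8 °C in both, by a log2 fold change of 2.23 ± 0.31 in JY1621 (SE, adjusted p = 3.12e-08, edgeR) and 5.05 ± 0.22 in JY1605 (SE, adjusted p = 5.05e-24, edgeR).

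In the other direction BnaC02G0083600ZS, described above, was counted in JY1605 only after 36 h at 25 °C. It passed the limit on low values through those libraries and thus had to be higher there. BnaC02G0004100ZS (rank 25) had 0.0834, 0.0707 and 0.369 CPM at 8 °C, against 208, 178 and 180 CPM at 25 °C after 36 h in JY1605. In JY1621 it had 0.151, 0.0291 and 0 CPM at 8 °C, against 3.35, 6.23 and 2.58 CPM at 25 °C. It was near 0 in the dry seeds and at 8 h in both genotypes, so that its level after 36 h at 25 °C stood alone in each. The fall at 8 °C was called in JY1621 (log2 fold change -5.58 ± 0.53, SE, adjusted p = 2.83e-09, edgeR) and in JY1605 (log2 fold change -10.07 ± 0.34, SE, adjusted p = 3.53e-18, edgeR). These 2 sizes rest on 7 counts at 8 °C in JY1621 and 16 in JY1605, and their SEs are rough at such counts. The difference between the 2 effects had a wider SE, 1.49.

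Among 29 members called for a different temperature effect at 36 h and with at least 4 CPM in the JY1621 libraries of that time, BnaC02G0052500ZS and BnaC02G0007500ZS had the widest positive and the widest negative difference. BnaC02G0052500ZS (rank 293) had 3.19, 4.600 and 2.94 CPM at 8 °C, against 4.66, 6.57 and 9.25 CPM at 25 °C in JY1621. In JY1605 it had 7.70, 7.85 and 10.2 CPM at 8 °C, against 114, 140 and 91.2 CPM at 25 °C. It fell at 8 °C in JY1605 (log2 fold change -3.75 ± 0.21, SE, adjusted p = 7.35e-14, edgeR), and its fold change of -0.84 ± 0.25 in JY1621 stayed under the limit of 1. The difference was 2.91 ± 0.32 (SE, adjusted p = 5.70e-08, edgeR).

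BnaC02G0007500ZS (rank 47) had 11.4, 9.98 and 12.8 CPM at 8 °C, against 4.95, 1.68 and 2.13 CPM at 25 °C after 36 h in JY1621. In JY1605 it had 15.1, 12.7 and 16.2 CPM at 8 °C, against 0.412, 0.253 and 0.182 CPM at 25 °C. The 8 °C libraries lay above the 25 °C libraries in both genotypes. The rise was 1.79 ± 0.23 in JY1621 and 5.68 ± 0.33 in JY1605 on the log2 scale (SE), and the difference -3.89 ± 0.44 (SE, adjusted p = 9.86e-09, edgeR). In JY1621 this model kept a level after 36 h at 25 °C that JY1605 seeds did not have, and in the other 4 conditions it stood at 73.9% to 140.0% of JY1605.

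The 2 most abundant low members differed in this respect. BnaC02G0014000ZS fell at 8 °C after 36 h in both genotypes, by a log2 fold change of -2.40 ± 0.20 in JY1621 (SE, adjusted p = 5.02e-10, edgeR) and -2.68 ± 0.19 in JY1605 (SE, adjusted p = 1.47e-11, edgeR). The difference between those effects, 0.28 ± 0.27, did not pass the test. BnaC02G0049800ZS fell in JY1621 (log2 fold change -2.58 ± 0.43, SE, adjusted p = 2.27e-05, edgeR) and rose in JY1605 (1.31 ± 0.31, SE, adjusted p = 0.000596, edgeR). Its difference was -3.89 ± 0.53 (SE, adjusted p = 2.21e-06, edgeR). The escaping BnaC02G0063600ZS rose at 8 °C after 36 h in JY1605 by 1.10 ± 0.13 (SE, adjusted p = 4.74e-10, edgeR), and gave 0.13 ± 0.13 in JY1621. The difference of -0.97 ± 0.18 lay just under the limit of 1. With library totals as the only scaling, its JY1605 value was 0.998 and no longer called.

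Imbibition at 25 °C gave called members in both genotypes, at shares below those of all tested models. The members' shares were 36.8% in JY1621 and 57% in JY1605 after 36 h, and 33.8% in JY1621 and 42.4% in JY1605 after 8 h. The 149 low members with at least 1 CPM in JY1621 were not below all tested models in JY1621. Their shares were 48.3% in JY1621 and 45.0% in JY1605 after 36 h, and 45.6% in JY1621 and 47.7% in JY1605 after 8 h. The part of low counts in the members' JY1621 shares was not tested. Against dry seeds, 184 members were called in JY1621 after 36 h at 25 °C, 124 higher and 60 lower, where 46.2% of all models were called, 26.2% higher and 20% lower. In JY1605 285 were called, 197 higher and 88 lower, against 61.4% of all models, 36.6% higher and 24.8% lower. One of the groups held 3 counts or fewer in 36 of these JY1621 calls, 27 of them higher. The same held for 55 of the JY1605 calls, 52 of them higher. The remaining calls were 97 higher and 51 lower in JY1621 and 145 higher and 85 lower in JY1605. After 8 h at 25 °C, 169 were called in JY1621, 71 higher and 98 lower, against 41.6% of all models, 22.2% higher and 19.4% lower. In JY1605 212 were called, 122 higher and 90 lower, against 45.4% of all models, 24.7% higher and 20.8% lower. Without replicate 2 of JY1621 after 8 h at 25 °C, the 8 h split in JY1621 turned to 83 higher and 71 lower. The splits also depend on the scaling. With library totals as the only scaling they were 175 higher and 37 lower in JY1621 and 275 higher and 60 lower in JY1605 at 36 h, and 101 higher and 51 lower in JY1621 and 210 higher and 40 lower in JY1605 at 8 h.

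After 8 h at 8 °C few models had moved from the dry state. In JY1621 16 members were called, 11 higher and 5 lower, against 6.49% of all models, 6.01% higher and 0.48% lower. Without replicate 1 of JY1621 after 8 h at 8 °C the split was 10 higher and 13 lower, and with no minimum fold change 16 higher and 15 lower. In JY1605 10 were called, 7 higher and 3 lower, against 3.4% of all models, 2.98% higher and 0.423% lower. By 36 h at 8 °C, 204 members were called in JY1621, 86 higher and 118 lower, against 47.6% of all models, 25.5% higher and 22.1% lower. In JY1605 242 were called, 137 higher and 105 lower, against 50.2% of all models, 26.6% higher and 23.7% lower. With library totals as the only scaling these last splits were 119 higher and 75 lower in JY1621 and 200 higher and 71 lower in JY1605. The direction of the JY1621 calls after 36 h at 8 °C thus turned with the scaling.

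Whether the residual JY1621 counts followed the same course as the JY1605 counts was described over 149 members before the edge that stood at or below 50% of JY1605 and had at least 1 CPM in JY1621. Their summed level was 912 ± 90.5 CPM in dry JY1621 seeds and 6944 ± 69.3 CPM in dry JY1605 seeds (SD, n = 3 each). It was 1341 ± 52.8 CPM in JY1621 after 36 h at 25 °C and 7966 ± 147 CPM in JY1605. In both genotypes that was the condition with the highest sum. After 36 h at 8 °C it was 922 ± 32.7 CPM in JY1621 and 6662 ± 76.0 CPM in JY1605.

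Across these 149 members the log2 fold changes of the 2 genotypes had a Pearson r of 0.90 for 36 h at 8 °C against dry seeds. The value was 0.84 for 8 h at 25 °C against dry seeds and 0.80 for 8 °C against 25 °C at 8 h. It was 0.71 for 36 h at 25 °C against dry seeds and 0.59 for 8 °C against 25 °C at 36 h. The lower pair both involve the libraries taken after 36 h at 25 °C. Over 320 of the next 500 models with at least 1 CPM in both genotypes the same r values were 0.88, 0.84, 0.84, 0.84 and 0.71 in that order. These are descriptions across models, which share libraries and are not independent. Of the 149, 28 were called the same way in both genotypes at 36 h between the temperatures and 5 opposite ways, and at 8 h 39 the same way and 0 opposite ways. Of the 320, 92 were called the same way and 3 opposite ways at 36 h, and 97 the same way and 2 opposite ways at 8 h. Over the 149, the median log2 change at 8 °C after 36 h was -0.51 in JY1621 and 0.07 in JY1605. Over the 320 it was 0.01 in JY1621 and 0.07 in JY1605.

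Near the start of A02 models stood on the other side. The first 25 tested A02 models were even between the genotypes, with a median log2 difference of 0.06, and the next 25 had a median of 3.29. By the same splitting rule the first 469 of 2374 tested A02 models formed a block with a median log2 difference of 0.945 between JY1621 and JY1605, and these took 1.11% of the counts in dry JY1621 seeds and 0.543% in dry JY1605 seeds. Added to the C02 members before the edge, the sum was 1.19% ± 0.0118 in dry JY1621 seeds and 1.19% ± 0.0210 in dry JY1605 seeds. Imbibed for 36 h at 25 °C, it was 2.00% ± 0.0589 in JY1621 and 2.34% ± 0.0323 in JY1605 (SD, n = 3 each). After 8 h at 25 °C the sum was 1.66% in JY1621 and 1.84% in JY1605. At 8 °C it was 1.24% in both after 8 h, and 1.62% in JY1621 and 1.63% in JY1605 after 36 h. The A02 block was cut by the same difference between genotypes, and its models were not paired with C02 models. Whether A02 counts stand in for C02 counts was not tested.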

How the data were processed

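RNA from 30 seed libraries was given as 1 table of raw counts per gene model, deposited by the authors and checked to be whole numbers with differing totals. The submitters' processing notes name featureCounts 2.0.6, HISAT2 2.2.1 and DESeq2 1.42.0. The sources used here do not give the build, the strand setting, the alignment and counting settings or how reads with several matches were counted. Groups were taken from the labels.

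The members and the rules for named models were chosen with earlier results of these data known. Counts of all 100919 models were filtered (edgeR 4.0.16 filterByExpr by group, minimum count 10, minimum total 15), leaving 57945, scaled by TMM and fitted with 1 mean per group over all 30 libraries. Temperature and imbibition were tested in 14 comparisons by edgeR's quasi-likelihood test, with Benjamini-Hochberg adjustment over all tested models and calls at an adjusted p below 0.05 with a log2 fold change of 1 or more in size. CPM values are TMM-scaled. Log2 differences used a prior count of 2. The test was run on simulated data with seeded changes beforehand. Interaction values are the temperature effect in JY1621 minus that in JY1605. Each SE of a fold change was derived from the F value of its test and is approximate. A fold change is printed only where each group compared held more than 3 counts.

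Named models were the first and last member, the models on either side of the edge and of rank 500, the 2 highest in JY1605 among those with no JY1621 count and among those at 1 to 50%, the 2 highest escaping ones, the 2 widest temperature changes in each direction at 36 h in JY1605 (a mean of at least 8 CPM over both temperatures there), and the widest positive and the widest negative difference between genotypes at 36 h (a mean of at least 4 CPM over both temperatures in JY1621). Replicates of a group had chi-square values per degree of freedom of at least 2.62, so none were counted as 1 sample. Precision is limited by 3 libraries a group and by the counts behind each model, which were low in JY1621.

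Alternatives were DESeq2 1.42.0, other scalings, filters and thresholds, smaller fits, a replicate block and leaving out each library. R 4.3.3, Python 3.11.15, pandas 2.3.3 and matplotlib 3.10.9 were used.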

Additional observations from a re-analysis of the deposited data

Results flagged for a closer look

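The temperature effect at 36 h (8 °C against 25 °C) was called different between the genotypes for 10 named members by edgeR's interaction test. That test called 36% of all members and 40.6% of all tested models. BnaC02G0052500ZS and BnaC02G0007500ZS were named for this difference, and BnaC02G0028000ZS and BnaC02G0004100ZS for their JY1605 change at 36 h. Their calls are thus no separate support. BnaC02G0056200ZS, BnaC02G0061700ZS and BnaC02G0014400ZS were named after their values were seen, for standing above 50% of JY1605 in all 5 conditions. Those conditions include both temperatures at 36 h, so these calls are no separate support either. The values below are the effect in JY1621 minus that in JY1605 on the log2 scale, with adjusted p from edgeR and SE derived from its F value. BnaC02G0049800ZS gave -3.89 ± 0.53 (adjusted p = 2.21e-06). BnaC02G0007500ZS gave -3.89 ± 0.44 (adjusted p = 9.86e-09). BnaC02G0056200ZS gave -3.26 ± 0.77 (adjusted p = 0.000368), from 43 counts at 8 °C and 60 at 25 °C in JY1621 and 80 at 8 °C and 7 at 25 °C in JY1605. BnaC02G0028000ZS gave -2.81 ± 0.43 (adjusted p = 4.05e-07), and 1.40 ± 0.51 at 8 h (adjusted p = 0.0365).

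Positive differences at 36 h were found for BnaC02G0004100ZS at 4.49 ± 1.49 (adjusted p = 0.0130), whose call was lost without replicate 1 of JY1621 at 36 h and 8 °C, where the value was 2.75. BnaC02G0052500ZS gave 2.91 ± 0.32 (adjusted p = 5.70e-08). BnaC02G0086700ZS, the first model after the edge, gave 2.63 ± 0.80 (adjusted p = 0.00432), from 5 counts at 8 °C and 42 at 25 °C in JY1605. BnaC02G0061700ZS gave 1.77 ± 0.38 (adjusted p = 9.86e-05). BnaC02G0014400ZS gave 1.57 ± 0.60 (adjusted p = 0.0221), a call lost when any of 4 libraries was left out, with values of 1.21 to 1.44. BnaC02G0000100ZS, the first model of the chromosome, gave 1.35 ± 0.44 (adjusted p = 0.00754).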

How the results depend on the processing

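No named fold change turned its sign under the alternatives run; splits of higher and lower calls were less stable. The edge moved from rank 488 to 487 with a prior count of 5 and to 485 among models of at least 2 CPM, and stayed at 488 when each replicate number was left out. The median level of 7.11% ranged from 6.74% to 7.50% without 1 replicate, and the 372 members at or below 50% in all conditions from 354 to 367. Without a minimum fold change, 296 members were called for 8 °C against 25 °C at 8 h in JY1605, and 31 in JY1621 and 31 in JY1605 for 8 h at 8 °C against dry seeds. In fits of only the groups compared, JY1621 had 91 calls for temperature at 8 h, 110 at 36 h, and against dry seeds 107 (8 h, 25 °C), 9 (8 h, 8 °C), 115 (36 h, 25 °C) and 127 (36 h, 8 °C), and JY1605 had 6 (8 h, 8 °C). In those fits the low-count filter kept fewer members, 273 of 500 for temperature at 36 h in JY1621. Leaving out each library gave 6 to 12 calls for 8 h at 8 °C against dry seeds in JY1605, 141 to 169 for temperature at 36 h in JY1621 and 152 to 185 for its difference between genotypes at 36 h. With library totals as the only scaling, the median over all models shifted by up to 0.663 on the log2 scale (8 h at 25 °C against dry seeds in JY1605). The difference for BnaC02G0004100ZS was 4.35 and not called in the fit of only the groups compared. Counting only the 488 members before the edge, an alternative chosen after seeing the data, gave 163 calls at 36 h in JY1621 and 309 in JY1605.

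Replicate numbers did not pair the samples: the lowest correlation of same-numbered deviations ran from -0.0445 to 0.000184 over 12 comparisons, and in none did every pair exceed 0.1. With a replicate block, 165 members were called for temperature at 36 h in JY1621 and 316 in JY1605, and no count moved by over 1.5 times. Depth limits the low members most: in JY1621, 361 to 456 of the 500 had a count in a given library, against 445 to 497 in JY1605.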
